A study of Rattus norvegicus with 6 samples.

Results

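The regions described here are the first 3 Mb (the starts) and the last 3 Mb (the ends) of each rat autosome other than chromosome 13, as numbered in the genome build rn5. A restriction fragment belonged to a start if it began below 3000000, and to an end if it began in the last 3000000 bases covered by the table of its chromosome. This gave 38 regions, 19 starts with 15949 fragments and 19 ends with 15286 fragments, out of 759990 fragments on 20 chromosomes. The rest of the same 19 autosomes, called the middle below, held 681252 fragments. The rule used position alone and no measured value, but it was set with earlier results of these data known.

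The measurements came from 4C-seq, in which chromatin is fixed, cut, re-ligated, and the fragments joined to a chosen viewpoint are amplified and sequenced. The viewpoint was a gene promoter on chromosome 13, which is why that chromosome was left out, and all contacts described here are between chromosomes. There were 6 libraries of cultured cardiac endothelial cells at passage 2, fixed with 2% formaldehyde for 10 min and cut with EcoRI, and each library pooled male and female cells. SS13BN (labelled SS-13BN/Mcwi), with 3 libraries, is a consomic strain that carries chromosome 13 of the Brown Norway rat on the SS background, and SS (labelled SS/JrHsdMcwi), also with 3 libraries, is the Dahl salt-sensitive strain it was derived from. The viewpoint therefore lies on the exchanged chromosome in SS13BN, while the regions described here are on chromosomes that both strains share. The labels do not give the age of the rats, nor whether replicate libraries started from different rats or different plates of cells. A p-value here therefore reflects only how much the 6 libraries vary, and part of that may be technical. A 4C table cannot check the labelled cell type, since it holds no expression of marker genes.

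Chromosome tips carry telomeres, the repeat caps that protect them, and the sequence just inside them is often repeated and shared between chromosomes. Centromeres, where the spindle attaches, lie at or near a tip in many rat chromosomes and inside the chromosome in others. In interphase nuclei, chromosomes occupy separate territories, centromeric sequence tends to gather at the nuclear edge and around nucleoli, and gene-rich chromatin of different chromosomes meets more often than gene-poor chromatin. No annotation of rn5 was used here, so no genes are named and no sequence is shown for these regions.

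Each deposited score was a z-score, solved back to the state of each fragment, captured (at least 1 read) or not captured. SS13BN 1, 2 and 3 captured 9.92%, 17.4% and 8.76% of all fragments outside chromosome 13, and SS 1, 2 and 3 captured 12.3%, 9.99% and 11.9%. SS13BN 2 stood above the other 5 libraries in this share. To set libraries side by side, capture is given below as relative capture. It divides the captured fragments of a region by the number that the captured share of the middle of the same chromosome, in the same library, would give, so 1 means capture as in the middle. A captured state does not say how many reads a fragment had, and a share of captured fragments is not a contact frequency.

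The deposited scores themselves ran low at the tips of chromosomes because of how they were built. The score set the captured fragments in a running window, which reached 250 fragments to either side, against the number expected of a whole window. At the tip nothing lay on the outer side, so the window was cut short there, while the expected number stayed the same. Over the outermost 250 fragments of the starts, the mean score was -3.33 ± 0.493 as deposited and -1.47 ± 0.238 once the expected number was scaled to the fragments actually in the window (SD, n = 6 libraries). Over the outermost 250 fragments of the ends, it was -2.28 ± 0.234 as deposited and -0.260 ± 0.192 rescaled. Over all fragments of the starts the mean score was -1.27 ± 0.230 as deposited and -0.721 ± 0.152 rescaled. Over all fragments of the ends it was -0.509 ± 0.146 as deposited and 0.119 ± 0.115 rescaled, so the sign of the ends turned with the rescaling. Of single regions, only the start of chromosome 5 and the end of chromosome 8 changed sign. The values below rest on captured fragments and are free of this shortfall.

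**Figure D1:**
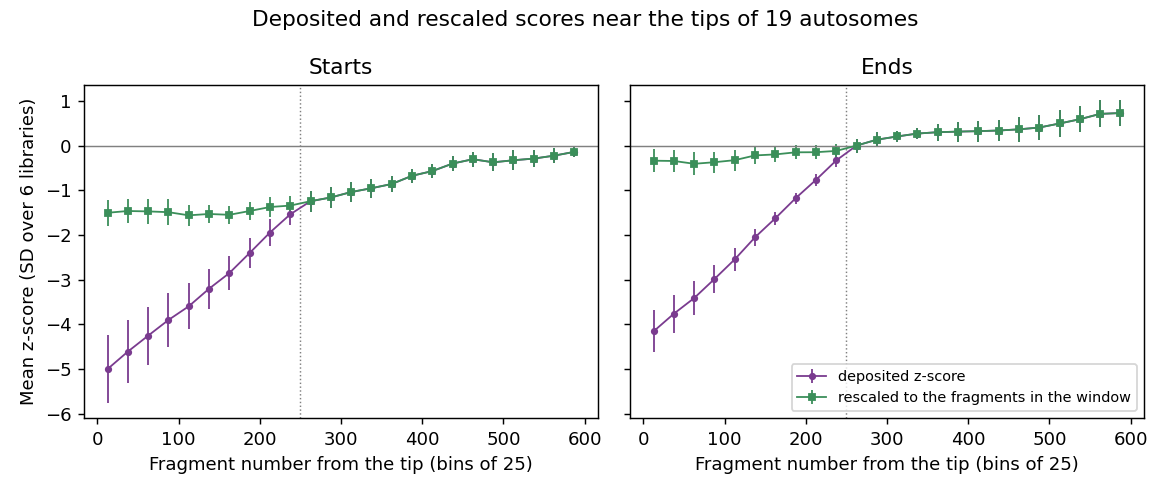
Mean z-score (vertical axis, no unit) against fragments counted inward from the chromosome tip (horizontal axis), averaged over the 19 autosomes in bins of 25 fragments, with bars for the SD over 6 libraries, for the score as deposited and after rescaling to the fragments present in the window. The deposited curves dive at the tips, where the outermost 25 fragments average -5.00 in starts and -4.16 in ends, against -1.50 and -0.336 after rescaling.

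Starts were captured less often than the middle of their chromosomes, while the ends as a whole showed no difference past the test. In the starts, SS13BN 1, 2 and 3 captured 9.31%, 15.9% and 8.03% of fragments, and SS 1, 2 and 3 captured 11.4%, 9.21% and 10.9%. In the ends, SS13BN 1, 2 and 3 captured 10.3%, 17.8% and 8.73%, and SS 1, 2 and 3 captured 12.9%, 10.4% and 12.2%. In the middle, SS13BN 1, 2 and 3 captured 10.1%, 17.7% and 8.92%, and SS 1, 2 and 3 captured 12.6%, 10.2% and 12.1%. The starts had the lowest of these shares in each of the 6 libraries. For SS13BN 3, the library with the lowest share, the 95% Wilson interval was 7.61% to 8.46% in starts and 8.29% to 9.18% in ends, for counting error only.

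Relative capture of the starts was 0.907, 0.888 and 0.897 in SS13BN and 0.901, 0.894 and 0.898 in SS, with a mean of 0.898 ± 0.00658 (SD, n = 6). The log2 difference of starts from the middle was -0.16 (SD 0.0106) and was below 0 in 6 of 6 libraries. An exact two-sided sign-flip permutation test gave p = 0.03125, the smallest that 6 libraries allow, and 0.0469 after Benjamini-Hochberg adjustment over 3 comparisons. This test takes the 6 libraries as independent, while libraries of SS13BN and SS with the same number deviated together. With same-numbered libraries averaged into 3 units, the value was the same and the exact p was 0.25, the smallest that 3 units allow, so the call is lost. Leaving out any library, SS13BN 2 included, kept the value between -0.159 and -0.153. The size of this difference moved with the setting. It was -0.33 over the first 1.5 Mb, -0.086 when fragments were compared within classes of length, -0.053 when fragments without a whole window around them were left out, and -0.26 when each chromosome had equal weight, each with an exact p of 0.03125.

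Relative capture of the ends was 1.01, 0.994 and 0.978 in SS13BN and 1.02, 1.01 and 1.01 in SS, with a mean of 1.002 ± 0.0143 (SD, n = 6). The log2 difference of ends from the middle was 0.0035 (SD 0.0206), above 0 in 4 of 6 libraries, with an exact sign-flip p of 0.6875. Its direction depended on single chromosomes and on the length taken. Without chromosome 12 it was -0.037 and without chromosome 7 it was -0.032. Without chromosome 10 it was 0.036 and without chromosome 18 it was 0.037. Over the last 1.5 Mb it was -0.083, and over the last 5 Mb it was 0.038. Each of these values had an exact sign-flip p of 0.03125. With each of the 19 chromosomes left out in turn, 9 of the values were below 0. Starts minus ends was -0.16 on the log2 scale (SD 0.0191), below 0 in 6 of 6 libraries, with an exact sign-flip p of 0.03125 (0.0469 adjusted over the 3 comparisons), and of 0.25 with same-numbered libraries averaged. With each chromosome left out in turn, starts minus ends ranged between -0.24 without chromosome 16 and -0.11 without chromosome 12. The p over 6 libraries was 0.03125 whichever of the 19 chromosomes was left out. Within classes of fragment length, starts minus ends shrank to -0.073, with an exact sign-flip p of 0.03125.

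The pooled values hid large differences among the 38 regions, and those differences recurred from library to library. Relative capture of single starts, as a mean over 6 libraries, ran between 0.375 and 1.38 with a median of 0.832. Single ends ran between 0.566 and 1.71 with a median of 1.02. Of the 19 starts, 11 were below 1 in all 6 libraries, those of chromosomes 1, 2, 3, 4, 7, 8, 10, 11, 12, 14 and 20, and 4 were above 1 in all 6, those of 6, 15, 16 and 17. Of the 19 ends, 7 were below 1 in all 6 libraries, those of 2, 9, 10, 15, 16, 17 and 18, and 6 were above 1 in all 6, those of 1, 3, 4, 5, 7 and 12. Among all 906 segments of 3 Mb, 34% were below 1 in all 6 libraries and 33.4% above, so the counts for ends are near this background.

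**Figure D2:**
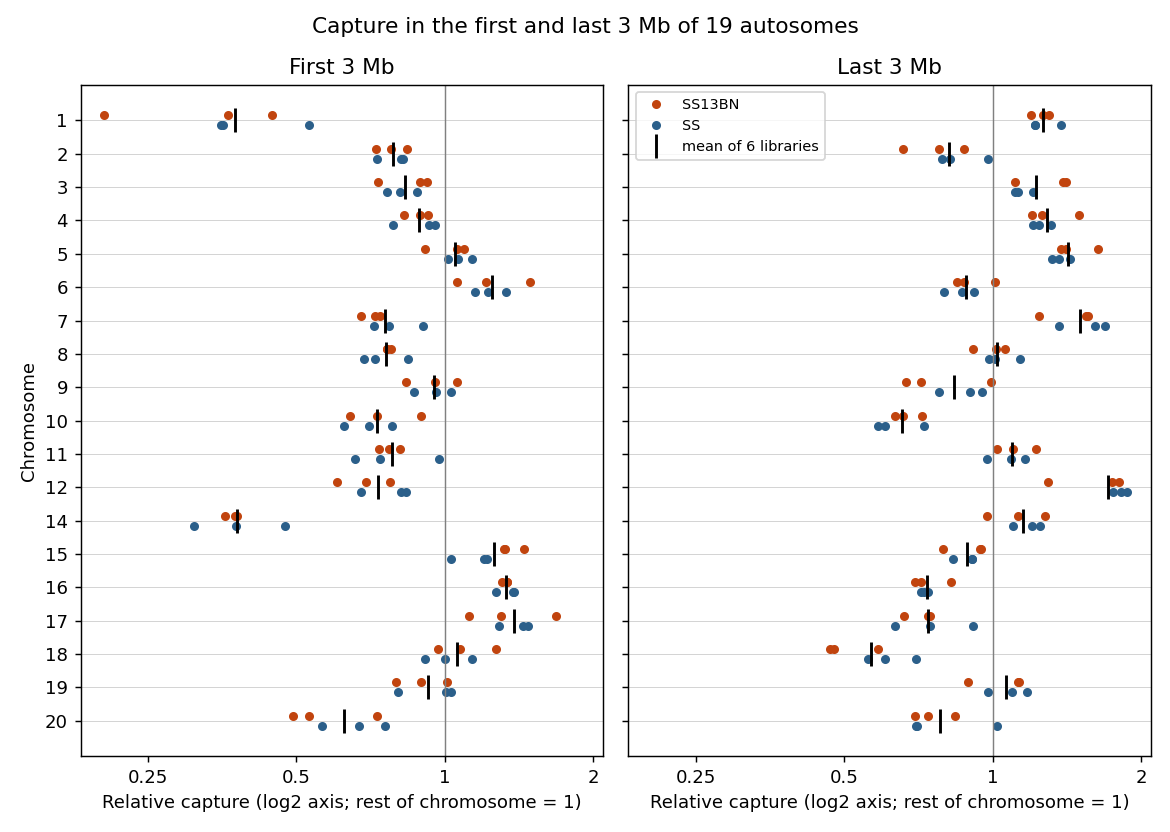
Relative capture (horizontal log2 axis, with the middle, or rest, of the same chromosome at 1) of the start and the end of each of 19 autosomes (rows), with 1 point per library, coloured by strain, and a black bar for the mean of 6 libraries. Starts spread between means of 0.375 and 1.38 and ends between 0.566 and 1.71, and the points of a region lie close together compared with the distance between regions.

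Each region was also tested among 906 segments of 3 Mb that tile the 19 autosomes and X, by limma on log2((captured + 1)/(expected + 1)) with p-values adjusted over all 906. The fit took the 6 libraries as independent, so its p-values do not allow for same-numbered libraries deviating together. The background is high: 36.6% of all segments were called above the middle of their chromosome, 39.3% below it, and 75.9% in either direction at an adjusted p under 0.05. Among the starts, 4 of 19 were called above and 11 of 19 below, which is 21.1% and 57.9%. Among the ends, 8 of 19 were called above and 9 of 19 below, which is 42.1% and 47.4%. The median log2 value was -0.27 over starts and 0.025 over ends, against -0.019 over the other 868 segments and -0.026 over all 906. The 38 regions together had 84.2% called, near the background, so being called says little of a region beyond its direction and size. The regions not called were the starts of 5, 9, 18 and 19 and the ends of 8 and 19. With expected capture taken within classes of fragment length, 5 starts were called above and 9 below, and 8 ends above and 9 below. Of all 906 segments, 321 were then called above and 349 below.

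**Figure D3:**
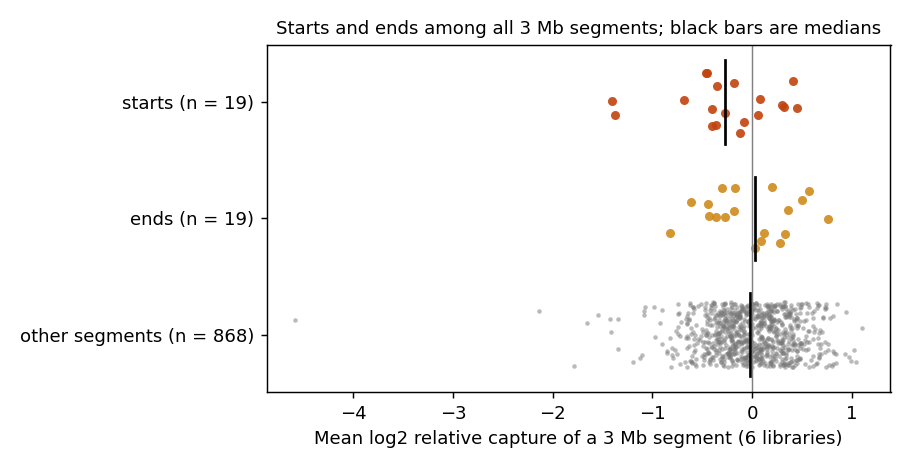
Distribution of the mean log2 relative capture (6 libraries) of 3 Mb segments, with 1 point per segment and black bars for medians, for starts, ends and the other 868 segments. The starts have a median of -0.27 and reach down to -1.41, while the ends have a median of 0.025 and run between -0.82 and 0.76. Both lie within the range of the other segments, -4.59 to 1.10.

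The end of chromosome 12, at 51458854 to 54450796, had the highest relative capture of the 38 regions. Of its 597 fragments, SS13BN 1, 2 and 3 captured 106, 183 and 66, and SS 1, 2 and 3 captured 131, 117 and 115. Relative capture was 1.71 ± 0.210 (SD, n = 6), with a limma log2 value of 0.76 (SE 0.0574, adjusted p = 1.18e-13). It ranked 1 among the 19 segments of its chromosome. Every 0.5 Mb bin of this end lay above the middle, between 1.36 and 2.13.

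The ends of chromosomes 7 and 5 came next in relative capture. By captured share, the start of 16 was above the end of 7 in each of the 6 libraries. At the end of 7, with 740 fragments, SS13BN captured 113, 192 and 80 and SS captured 154, 117 and 117, a relative capture of 1.503 ± 0.167 and a limma log2 value of 0.57 (SE 0.0577, adjusted p = 1.02e-10). At the end of 5, with 585 fragments, SS13BN captured 108, 147 and 74 and SS captured 111, 79 and 106, a relative capture of 1.42 ± 0.112 and a limma log2 value of 0.50 (SE 0.0535, adjusted p = 4.02e-10). Both ranked 5 on their chromosomes, among 48 segments of chromosome 7 and 59 of chromosome 5. The end of chromosome 4 had a relative capture of 1.29 ± 0.112 and a limma log2 value of 0.36 (SE 0.0541, adjusted p = 4.52e-07).

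Among starts, those of chromosomes 17 and 16 had the highest relative capture. Of the 661 fragments at the start of 17, SS13BN captured 91, 126 and 52 and SS captured 95, 79 and 83. Its relative capture was 1.38 ± 0.194 and its limma log2 value 0.45 (SE 0.0638, adjusted p = 1.21e-07). The middle of 17 had 8.18%, 14.6% and 7.03% captured in SS13BN and 9.99%, 8.08% and 9.76% in SS. These shares were lower than those of the pooled middle in each library. By captured share, the start of 17 was below the start of 6 in each of the 6 libraries. Of the 793 fragments at the start of 16, SS13BN captured 135, 224 and 116 and SS captured 175, 141 and 147. Its relative capture was 1.33 ± 0.0410 and its limma log2 value 0.41 (SE 0.0601, adjusted p = 2.25e-07), and it ranked 2 of 30 segments. Neither was high at the very tip. The start of 16 had 0.54 in its outermost 0.5 Mb and between 1.23 and 2.19 in the bins from 0.5 to 3 Mb.

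The starts of chromosomes 1 and 14 were captured least. Of 338 fragments at the start of 1, at 0 to 3008943, SS13BN captured 15, 12 and 11 and SS captured 15, 12 and 22. Relative capture was 0.375 ± 0.109 and the limma log2 value was -1.41 (SE 0.144, adjusted p = 1.67e-10), ranking 95 of 97 segments. Of 869 fragments at the start of 14, SS13BN captured 25, 47 and 23 and SS captured 41, 22 and 33. Relative capture was 0.379 ± 0.0535 and the limma log2 value was -1.38 (SE 0.0971, adjusted p = 2.45e-14), and it ranked 39 of 39, the lowest segment of chromosome 14. The start of 1 holds few fragments because 1 row of 1875979 bp, at 935495 to 2811473 and captured in 0 libraries, fills most of it. Rows longer than a megabase that no library captured also began in the starts of chromosomes 3, 12, 17 and 20, with lengths of 5537756, 2343762, 2407625 and 2209873 bp, and the high start of 17 is among them.

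Low values at the other named regions were milder. The end of 18 had 45, 69 and 32 of 836 fragments captured in SS13BN and 68, 46 and 53 in SS, a relative capture of 0.566 ± 0.0863 and a limma log2 value of -0.82 (SE 0.0767, adjusted p = 1.91e-11). The start of 20 had 24, 45 and 29 of 429 fragments captured in SS13BN and 34, 34 and 39 in SS, a relative capture of 0.623 ± 0.110 and a limma log2 value of -0.68 (SE 0.0955, adjusted p = 9.83e-08). Chromosome 10 was low at both tips. Its end had 70, 109 and 51 of 761 fragments captured in SS13BN and 72, 74 and 64 in SS, with a limma log2 value of -0.61 (SE 0.0640, adjusted p = 2.71e-10), and its start had a limma log2 value of -0.46 (SE 0.0631, adjusted p = 6.49e-08). The start of 20 and the end of 10 were the lowest segments of their chromosomes.

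Pooled capture was lowest in the outermost 0.5 Mb of the first 3 Mb on both sides, and higher further in. Pooled over 19 starts, the outermost 0.5 Mb had a relative capture of 0.597, 0.626 and 0.594 in SS13BN and 0.615, 0.634 and 0.642 in SS, a mean of 0.618 ± 0.0197 (SD, n = 6). The bins from 0.5 to 2.5 Mb then averaged 0.858, 0.935, 0.971 and 0.971, and the bin from 2.5 to 3 Mb averaged 1.16. Not all chromosomes have fragments in each of these bins: 18 do from 1 to 1.5 Mb and 16 in each bin from 1.5 to 3 Mb. Over the 15 chromosomes with fragments in every bin, which leaves out 1, 12, 17 and 20, the starts averaged 0.660, 0.839, 0.924, 0.932, 0.966 and 1.17 from the tip inward. In the ends, the outermost 0.5 Mb had 0.834, 0.882 and 0.808 in SS13BN and 0.795, 0.793 and 0.953 in SS, a mean of 0.844 ± 0.0627. The next bins of the ends averaged 0.988, 0.997, 1.05 and 0.995, and the bin from 2.5 to 3 Mb averaged 1.17. The outermost bin was below 1 in each of the 6 libraries on both sides.

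Beyond 3 Mb, starts and ends differed again. From 3 to 6 Mb, the side of the starts averaged 0.904 ± 0.0231 and the side of the ends 1.11 ± 0.0175. From 6 to 10 Mb, it was 1.05 ± 0.0277 beside the starts and 1.13 ± 0.0212 beside the ends. At the 3 Mb bound, the 0.25 Mb just inside had 1.13 ± 0.0630 in starts and 1.23 ± 0.0634 in ends, and the 0.25 Mb just outside had 0.940 ± 0.102 and 1.18 ± 0.0964.

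**Figure D4:**
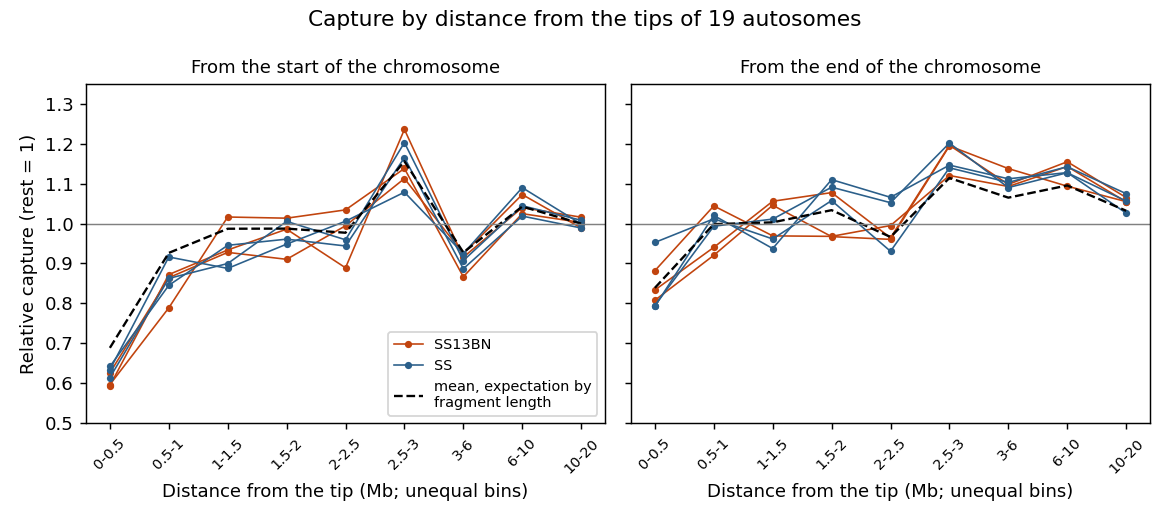
Relative capture (vertical axis) in bins of distance from the chromosome tip (horizontal axis, Mb), pooled over the autosomes with fragments in a bin (16 to 19 beside the starts, 19 beside the ends), for starts and ends; each coloured line is a library, and the dashed line is the mean with the expected number taken by fragment length. Bins are of unequal width and the vertical axis begins at 0.5. The outermost 0.5 Mb averages 0.618 in starts and 0.844 in ends, and the bin from 2.5 to 3 Mb averages 1.16 in starts and 1.17 in ends.

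Low capture at the very tip was found on most chromosomes. The outermost 0.5 Mb was below 1 on 17 of 19 chromosomes at the start, the exceptions being 4 and 15, and on 15 of 19 at the end, the exceptions being 4, 5, 12 and 14. Of all 5002 windows of 500 kb on these autosomes with at least 20 fragments, 50.2% were below 1. The outermost bin was below 1 in all 6 libraries at 11 starts and 7 ends, 19 of each being measured, against 23.1% of all such windows. When expected capture was taken within classes of fragment length, the outermost starts averaged 0.689 ± 0.0255 and the outermost ends 0.839 ± 0.0619, and 15 of 19 were below 1 on each side. Fragments captured in no library made up 75.9% of the outermost bin of the starts and 67.8% of that of the ends.

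Single tips varied more than the pooled profile shows. Of the 138 fragments in the first 0.5 Mb of chromosome 14, SS13BN captured 0, 0 and 0 and SS captured 0, 2 and 0. A count of 0 allows a share of up to 2.17%, while the middle of chromosome 14 had 8.01%, 14.2% and 7.05% captured in SS13BN and 9.94%, 8.17% and 10.1% in SS. These limits cover counting error only. The first 0.5 Mb of chromosome 1 had a relative capture of 0.194 ± 0.113.

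At the end of chromosome 7 the tip and the rest of the region went opposite ways. The last 0.5 Mb, with 123 fragments, had 4, 6 and 2 captured in SS13BN and 4, 5 and 6 in SS, a relative capture of 0.318 ± 0.0900, while the 5 bins further in lay between 1.46 and 2.59. At the end of chromosome 10, the outer 3 bins had 0.32, 0.16 and 0.043, and the inner 3 had 1.252, 1.285 and 1.627. The bin at 1 to 1.5 Mb of that end held 178 fragments, of which SS13BN captured 2, 1 and 2 and SS captured 0, 0 and 1. The end of chromosome 5 was the opposite case: its last 0.5 Mb, with 110 fragments, had 30, 43 and 28 captured in SS13BN and 33, 22 and 32 in SS, a relative capture of 2.30 ± 0.279.

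The start and the end of the same chromosome often differed. Relative capture was lower in the start than in the end in all 6 libraries on 10 chromosomes, 1, 3, 4, 5, 7, 8, 11, 12, 14 and 20. It was higher in the start in all 6 on 5 chromosomes, 6, 15, 16, 17 and 18. By the mean over libraries, 9 chromosomes had a start below 1 and an end above 1, 5 had the opposite, 4 had both below and 1 had both above. Taken separately, 13 of 19 starts were below 1 and 10 of 19 ends above 1, so such pairs can be common without any link. A link between start and end was not tested. Across the 19 chromosomes Spearman's rho between start and end was -0.368, given as a description. Both values of a chromosome share its middle as denominator.

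**Figure D5:**
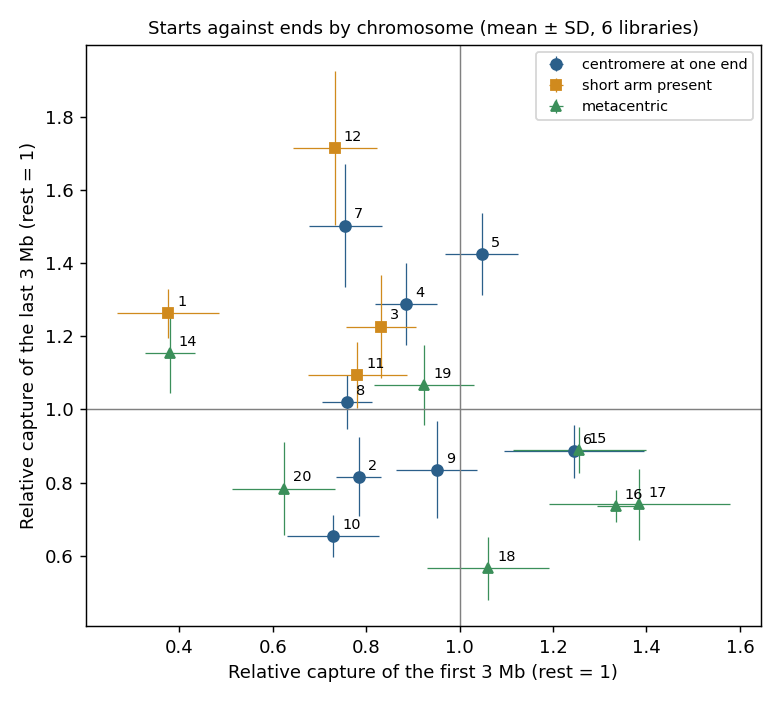
Relative capture of the start (horizontal axis) against that of the end (vertical axis) for 19 autosomes, as means with bars for the SD over 6 libraries, with symbols for the position of the centromere. Of the chromosomes, 9 lie at a start below 1 and an end above 1, and 5 lie at a start above 1 and an end below 1.

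The position of the centromere in the standard rat karyotype, taken from general knowledge and not from the files, splits the autosomes used into 3 classes. Chromosomes 2 and 4 to 10 have it at a tip, 1, 3, 11 and 12 have a short arm, and 14 to 20 have arms of similar length. By convention the numbering begins at the short arm or the centromeric tip. Pooled by class, the 4 chromosomes with a short arm had the lowest starts, at 0.743 ± 0.0306, and the highest ends, at 1.29 ± 0.0267 (SD, n = 6 libraries). The 8 with the centromere at a tip had 0.878 ± 0.00710 in starts and 1.02 ± 0.0392 in ends. The 7 with arms of similar length had 1.01 ± 0.0195 in starts and 0.838 ± 0.0375 in ends. These SDs are over libraries and do not show the spread among chromosomes. Single starts ran between 0.375 and 0.832 with a short arm and between 0.729 and 1.24 with the centromere at a tip. With arms of similar length they ran between 0.379, at chromosome 14, and 1.38. Single ends ran between 1.09 and 1.71, 0.654 and 1.503, and 0.566 and 1.15, in the same order of classes. The ranges of the classes overlapped in starts and in ends. All 4 short-arm starts were below 1 in all 6 libraries, and 3 of the 4 short-arm ends were above 1 in all 6. With fragments compared within classes of length, starts pooled at 0.809 with a short arm and 0.934 with the centromere at a tip. With arms of similar length they pooled at 1.02. The start of 12 was then 0.957, with 2 of 6 libraries above 1, and that of 11 was 0.813, with 1 above. The outermost 0.5 Mb of the starts was below 1 in each class, at 0.454 with a short arm, 0.718 with the centromere at a tip and 0.654 with arms of similar length. Within classes of fragment length these values were 0.575, 0.768 and 0.686. The classes hold few chromosomes and were not tested against each other.

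Starts also differed from the middle in the fragments they hold. The median EcoRI fragment was 1833 bp in starts, 2312 bp in ends and 2211 bp in the middle. Fragments under 500 bp made up 24.3% of starts, 16.7% of ends and 18.2% of the middle. The start of chromosome 12, with a median of 434 bp, and the start of chromosome 2, with 655.5 bp, had the shortest. Short fragments were captured less than long ones in starts, ends and middle alike: in the shortest class, 6 to 215 bp, 4.12% ± 0.740 were captured in starts, 6.27% ± 1.14 in ends and 5.26% ± 0.914 in the middle, averaged over libraries. Starts held 14.9% of their fragments in this class, ends 8.78% and the middle 9.85%. With fragments compared within classes of length, the mean of no region turned from above to below 1 or back. In all 6 libraries, 8 starts were then below 1 and 3 above 1, and 7 ends were below and 6 above. The start of chromosome 2 moved from 0.784 to 0.972, with 3 of 6 libraries above 1.

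The repeat of capture over libraries was also counted per fragment. Fragments captured in no library were 66.4% of starts, 62.6% of ends and 62.5% of the middle. Fragments captured in all 6 libraries were 1.42% of starts, 1.57% of ends and 1.53% of the middle. A fragment captured at all was captured in a mean of 1.93 libraries in starts, 1.93 in ends and 1.91 in the middle. Among single regions, 87.6% of the fragments at the start of 1 and 87.2% at the start of 14 were captured in no library, against 45.9% at the end of 12.

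Few windows in these regions stood out as contacts of the viewpoint. A contact window was a 500 kb window with more captured fragments than the share of the library gives, by a one-sided exact binomial test that passed an adjusted p of 0.05 in each of the 3 libraries from a strain. Of 5317 windows, 1.6% were contact windows in SS13BN, 1.81% in SS and 0.677% in both. Of the 216 windows in starts and ends, 5 were contact windows in SS13BN (2.31%), 2 in SS (0.926%) and 2 in both. The SS13BN count was 2 when expected capture was taken per chromosome and 1 at a threshold of 0.01. It was 15 without SS13BN 3, and the SS count was 7 without SS 3, where the rule asks for 2 libraries only. The difference between the strains in these counts was not tested.

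Both windows shared by the strains lay side by side at the start of chromosome 16. The window from 1500000 to 2000000, with 91 fragments, had 24, 34 and 21 captured in SS13BN and 42, 27 and 27 in SS, 2.77 ± 0.543 times the share of the library. The window from 1000000 to 1500000, with 100 fragments, had 27, 45 and 21 captured in SS13BN and 26, 22 and 28 in SS, 2.39 ± 0.230 times the share of the library. The window before them, with 135 fragments, was called in SS13BN and had 1.91 times the share. Relative capture of these windows, against the middle of chromosome 16, was 2.19, 1.89 and 1.51 in the order given. That middle had a higher captured share than the pooled middle in each library. In the ends, the SS13BN contact windows were at 176500000 to 177000000 on chromosome 5, with 2.08 ± 0.156 times the share, and at the window that begins at 288000000 on chromosome 1, with 1.70 times. The window of chromosome 5 missed the call in SS through SS 2, whose exact binomial adjusted p was 0.0654, with 21 of 116 fragments captured.

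No difference between SS13BN and SS passed a test in the pooled regions. In the starts, log2 relative capture was -0.156 ± 0.0157 in SS13BN and -0.156 ± 0.00581 in SS, a difference of -0.00083 with an exact permutation p of 0.9. In the ends, it was -0.0097 ± 0.0212 in SS13BN and 0.0166 ± 0.00988 in SS (SD, n = 3 each), a difference of -0.026 with an exact permutation p of 0.2. With 3 libraries on each side no p below 0.1 is possible, so these tests could not reach 0.05. Both adjusted p-values over the pair of comparisons, 0.9 and 0.4, were above 0.05.

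Over single 3 Mb segments, limma called 0 of 906 (0%) between the strains, while 25 of them passed 0.05 before adjustment. The typical (median) half-width of the 95% interval of a strain difference was 0.234 on the log2 scale over the 38 regions, before any adjustment over segments, so larger differences could also be missed. The region with the smallest p was the start of 15, with relative capture of 1.45, 1.32 and 1.32 in SS13BN and 1.22, 1.03 and 1.20 in SS. Its limma log2 difference was 0.25 (SE 0.107, unadjusted p = 0.0271, adjusted p = 0.997). It was the only one of 38 whose libraries did not overlap between strains, against 6.18% of all 906 segments. The end of 18 followed, with a limma log2 difference of -0.28 (SE 0.153, unadjusted p = 0.0788, adjusted p = 0.997). The end of 3 came next, with relative capture of 1.41, 1.11 and 1.39 in SS13BN and 1.21, 1.13 and 1.11 in SS, which overlap.

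The order of the 38 regions by relative capture was alike in all libraries. Spearman's rho between libraries was 0.818 to 0.906 within a strain (6 pairs). It was 0.913 to 0.922 between libraries of different strains with the same number (3 pairs) and 0.830 to 0.907 between those with different numbers (6 pairs). These correlations are across regions and are given as a description. Libraries of the same number were thus at least as alike as libraries of the same strain.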

How the data were processed

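The authors deposited 1 table per library with 1 z-score per EcoRI fragment, a score with no fixed range. Per the submitters' processing notes, CASAVA 1.8 and the build rn5 were used. For the aligner and the scoring program, the sources used here give no name. From the scores, the captured state of each of 759990 fragments was solved exactly, which gave back 100.0% of the window scores per library. Coordinates are as the tables give them, starting at 0.

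Relative capture was computed per region and library. Pooled values were tested with exact two-sided sign-flip permutations over 6 libraries and exact permutations of 3 against 3. Segments of 3 Mb with at least 20 fragments were tested with limma 3.58.1 (R 4.3.3, trend, pseudocount 1) and Benjamini-Hochberg adjustment. Python 3.11.15, numpy 2.4.6, pandas 2.3.3 and scipy 1.17.1 were used, and scripts were tested on simulated data. The 6 highest and 6 lowest regions by limma, the contact windows and the 3 smallest strain p-values were named, and single tips were picked after their values were seen. The regions, lists and tests were chosen with earlier results of these data known. The replicate numbers come from the sample titles. Same-numbered libraries deviated together over 906 segments (correlations 0.243, 0.175 and 0.199), so the numbers were taken to pair libraries. Alternatives covered region length, pseudocount, fragment length, windows, the replicate block and each left-out library.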

Additional observations from a re-analysis of the deposited data

How the results depend on the processing

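Differences are on the log2 scale. Starts against the middle and starts minus ends stayed below 0 under every alternative run. Within length classes they were -0.086 and -0.073, each with an exact sign-flip p of 0.03125. Leaving out each library gave -0.159 to -0.153 for starts against the middle and -0.166 to -0.156 for starts minus ends. The exact sign-flip p was then 0.0625, the smallest that an exact test on 5 libraries allows. Ends against the middle (0.0035) turned to -0.083 over 1.5 Mb, -0.013 within length classes, -0.019 with equal weight per chromosome, -0.54 in units of the deposited z-score and -0.037 without chromosome 12, and was 0.038 over 5 Mb and 0.049 without fragments lacking a whole window; leaving out each library gave -0.0014 to 0.0105. The strain difference of the starts turned to 0.0024 over 5 Mb and 0.022 without fragments lacking a whole window, and ran between -0.0088 and 0.0069 with each library left out. That of the ends turned to 0.0049 over 1.5 Mb and ran between -0.037 and -0.015. Of the 38 regions, 32 were called, 31 to 33 with each library left out; with 1 Mb segments, 81 of 111 were. SS13BN contact windows numbered 5, and 2 by chromosome, 2 by length class, 1 at a threshold of 0.01 and 2 with 250 kb windows; with a library left out they were 5 to 15, the 15 without SS13BN 3, and SS windows 2 to 7, the 7 without SS 3, since the rule then asks for 2 libraries only. With the replicate block, 33 regions and 0 strain differences were called. The block took differences between replicate numbers out of the error of the mean. These calls therefore do not allow for same-numbered libraries deviating together. With the block, the exact permutation p of the strain difference was 0.75 for starts and 0.25 for ends, neither of which was a call without the block. With libraries of the same number averaged, chosen after seeing the data, starts against the middle (-0.156) and starts minus ends (-0.159) had an exact p of 0.25, the smallest for 3 units, and so lost their calls. The rescaled z-score and the left-out chromosome 12 were chosen after seeing the data. Between 338 and 1510 fragments per region, and captured states without read numbers, limit the precision.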

Other observations

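Chromosome X, which is no autosome, was low at both tips relative to its own middle. The first 3 Mb of X, with 647 fragments, had a relative capture of 0.852, 0.698 and 0.865 in SS13BN and 0.987, 0.688 and 0.710 in SS. The last 3 Mb of X, with 855 fragments, had 0.661, 0.801 and 0.895 in SS13BN and 0.899, 0.781 and 0.773 in SS. All 12 of these values were below 1, and the strains overlapped at both tips. Among all 906 segments of 3 Mb, 34% were below 1 in all 6 libraries. The median fragment was 1596 bp in the first 3 Mb of X, 2080 bp in the last 3 Mb and 1964 bp in its middle. These values of X were not adjusted for fragment length.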
